A study of Mus musculus with 9 samples.

Results

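The numbered *Zfp* genes encode zinc finger proteins, most of them of the C2H2 type, in which a pair of cysteines and a pair of histidines hold a zinc ion and a row of fingers reads a DNA sequence. Members were all genes named *Zfp* followed by a number, other than *Zfp36* (which encodes an RNA-binding protein), that were selected on a base mean of 10 to 300, where the base mean is the authors' mean normalized count over the 3 de novo expanded and 3 stably expanded libraries. The rule kept 188 of 373 numbered *Zfp* genes among 55401 genes in the tables, and left 90 under and 95 over the limits. *Zfp11*, *Zfp583* and *Zfp239* were named in the choice of genes for their pattern in these libraries, so their levels are given as a description without p-values. They stayed in the fits and counts, where a call of any of them counts as description. Because the base mean used the leukemic libraries, a gene with reads in pre-malignant cells alone would not have been kept. Of the genes under the lower limit, 4 had a pre-malignant mean normalized count of at least 10.

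The genes were measured by RNA-Seq in 9 libraries of mouse splenocytes, 3 per group. All groups descend from lineage-negative bone marrow cells of C57BL/6-Ly5.1 mice that were transduced with a gammaretroviral vector for *Meis1* and *Hoxa9* (H9M cells) and then marked with lentiviral vectors of fluorescent genetic barcoding (FGB-D), which give each clone a color code. Pooled clones were transplanted with helper bone marrow into lethally irradiated C57Bl6/J recipients, and cKit+CD11bdim cells of 1 color code were sorted from thawed spleens. Ages of the animals were not given in the sources used here. The pre-malignant cells came from mouse #15, sacrificed early, and are those of 33BC-D, of 38BC-D and of 43BC-D. De novo expanded cells are these clones at the leukemic endpoint (38BC-D from #13, 43BC-D from #14, 33BC-D from #17), and stably expanded cells are clone 34BC-D taken from the same mice. The 3 stably expanded libraries are thus 1 clone, and the 3 pre-malignant libraries are 1 mouse, so p-values measure the spread between sorted populations. The tables link a library to its group but not to a clone or mouse. Each library therefore has a number from 1 to 3 in its group, and the same number in different groups does not mean the same clone.

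Many C2H2 proteins carry a KRAB domain, which recruits the corepressor Trim28 and, through it, the histone methyltransferase Setdb1, heterochromatin proteins and histone deacetylases. KRAB zinc finger proteins are known for silencing transposable elements and retroviruses, and their genes lie in chromosome clusters that grew by gene duplication.

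Reads on genes numbered 10379739 to 15551196 per library. Levels are given as recovered reads or as CPM (each library's reads scaled to the same total of reads on genes). A gene with a count of 0 in a library could still have had up to 3 reads by counting error, and other losses are not covered. Of the 188 genes, 182 had at least 1 read in all 9 libraries. The genes of the sorted population were present in every library, but de novo expanded library 3 stood apart on granule genes, with an *Mpo* level of 15796 CPM against 1637 and 2658 CPM in the other 2 libraries of its group. Summed CPM of 10 B cell markers were 229 to 278 in pre-malignant, 77.1 to 229 in de novo expanded and 87.5 to 109 in stably expanded libraries. All 10 T cell markers and all 10 macrophage markers had reads (at most 5.68 and 288.5 CPM summed), the 9 erythroid markers in the tables summed to 24.9 to 56.1 CPM in pre-malignant and 3.33 to 32.7 CPM in leukemic libraries, and of 10 platelet markers *Treml1*, *Ppbp* and *Gp1bb* were at 0. Olfactory and vomeronasal receptor genes, which blood cells do not express, took 0.0075 to 0.0167% in pre-malignant, 0.0035 to 0.0109% in de novo expanded and 0.0021 to 0.0074% in stably expanded libraries, as shares of reads. These values move with the groups, and their part in the differences described here was not tested beyond 1 fit with the receptor share as a covariate.

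The limits of the rule set the level of these genes. The summed level of the 188 genes was 1656, 1621 and 1565 CPM in pre-malignant libraries, 1499, 1670 and 1585 CPM in de novo expanded libraries and 1472, 1557 and 1464 CPM in stably expanded libraries. The stably expanded libraries lay below the pre-malignant ones and overlapped the de novo expanded ones, with group means of 1498 ± 51.2 (SD, n = 3), 1614 ± 45.9 and 1585 ± 85.8 CPM. The median base mean was 86.9. Divided by exon length, the median level was 1.75, 1.73 and 1.54 CPM per kb in the 3 groups, and the highest was that of *Zfp593* in de novo expanded libraries (9.4 CPM per kb), although 77.9% of the exon bases of *Zfp593* are shared with an antisense gene. Only 7 of the genes overlap other annotated genes over at least 20% of their exon bases, and 134 share no base. The coefficient of variation over the 9 libraries was 25.1% in the median member, from 6.46% in *Zfp790* to 137% in *Zfp583*, against 33.3% in the median of 7136 genes with a base mean in the same limits. It lay under 20% in 58 members and over 60% in 17. *Zfp593* and *Zfp790* were chosen here after their values were seen.

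**Figure D1:**
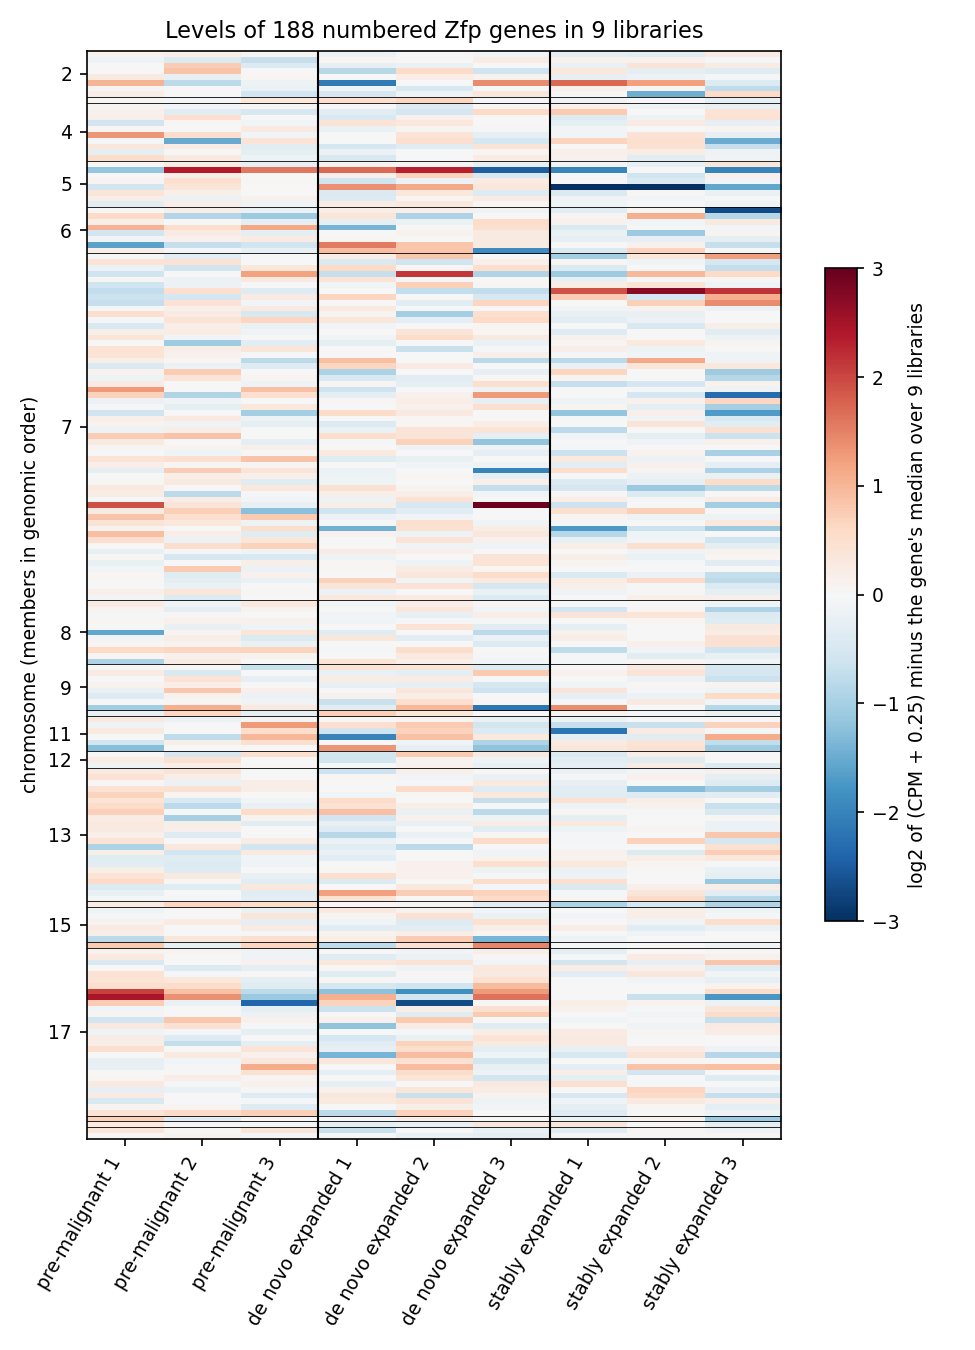
Level of each of 188 numbered *Zfp* genes (rows, in genomic order, chromosomes with at least 3 members labelled) in 9 libraries (columns), as log2 of CPM plus 0.25 minus the gene's median over the libraries. Most rows are pale in every library, and a few rows are strongly colored in single libraries or in 1 group, such as *Zfp583* on chromosome 7 (red in the 3 stably expanded libraries) and *Zfp11* on chromosome 5 (blue in them).

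The limits cut through a continuous range. Just inside the lower limit were *Zfp82*, *Zfp931* and *Zfp867* with base means of 10.4, 10.6 and 10.7, and just outside it *Zfp97*, *Zfp9* and *Zfp551* with 9.63, 8.84 and 6.85. At the upper limit *Zfp553*, *Zfp46* and *Zfp790* with 291, 293 and 294 were kept. *Zfp809*, known for silencing retroviruses through the primer binding site, *Zfp597* and *Zfp212* were left out with 305.5, 311 and 312.

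The rule chose the members by a name given to zinc finger genes, so the motifs counted here describe them and are not independent of the rule. In coding sequences of GENCODE M1, found for 177 of the 188 genes, 101 encode a short pattern of the KRAB domain (KRAB motif). Among genes outside the 373 numbered *Zfp* genes, 0.451% encode it. That share leaves out the numbered *Zfp* genes outside the base mean limits, so it does not set the members apart from them. At least 1 C2H2 finger motif was found in 173, and the median was 11 fingers with a maximum of 33 in *Zfp619*. Windows of 38 bases (the read length) were taken from the whole transcript with the longest coding sequence, untranslated ends included. A median of 99.7% of them occur in no protein-coding transcript of another gene. In 19 genes under 80% are unique in this sense, so reads of these genes could be shared with close relatives. Pseudogenes and noncoding genes were not searched. The RefSeq promoters of 162 members (GRCm38.p6, 250 bases before to 50 bases after the start) held a median of 14 CpG dinucleotides, against 7 over 27025 genes. The motif ACTACAANT, searched on both strands, was found in 9 of the 162 promoters (5.56%) and in 1.64% of the promoters of these 27025 genes. The 27025 genes were not matched to the members in level and include genes without reads here, so neither difference is read as particular to the members. By chromosome, 60 of the 188 genes lie on chromosome 7, 29 on chromosome 17, 23 on chromosome 13, 11 on chromosome 8 and 10 on chromosome 4.

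*Zfp11* and *Zfp583* showed the largest differences between the stably expanded clone and the other clones. *Zfp11* (ENSMUSG00000051034.7, GRCm38.p6 chromosome 5 from 129654593 to 129670099, minus strand), which encodes 21 finger motifs without a KRAB motif, had 31, 68 and 53 reads in pre-malignant libraries, 115, 128 and 71 reads in de novo expanded libraries and 1, 1 and 11 reads in stably expanded libraries. All 6 libraries of the other clones thus lay above all 3 libraries of 34BC-D. The mean level was 3.53 ± 1.15 (SD, n = 3), 7.49 ± 2.56 and 0.398 ± 0.573 CPM, respectively, and stably expanded library 3 held 1.06 CPM against 0.0653 and 0.0685 CPM in the other 2. The log2 fold change, on the scale of log2(normalized count + 1), was -3.62 for stably expanded over pre-malignant, 1.07 for de novo expanded over pre-malignant and -4.67 for stably over de novo expanded. De novo expanded and pre-malignant libraries were separated by the authors' size factors but not in CPM, where de novo expanded library 3 (4.64 CPM) lay just under pre-malignant library 2 (4.66 CPM).

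*Zfp583* (ENSMUSG00000030443.16, chromosome 7 from 6315660 to 6331285, minus strand), a KRAB gene with 12 finger motifs, showed the opposite picture. It had 0, 5 and 1 reads in pre-malignant libraries, 2, 0 and 0 reads in de novo expanded libraries and 20, 36 and 17 reads in stably expanded libraries. The gene was near the limit of detection in all 6 libraries of the other clones, and every 34BC-D library lay above them. Against 3 reads per library in the de novo expanded group, the mean of the stably expanded libraries (1.8 ± 0.598 CPM) was at least 8.46-fold higher. The log2 fold change over the pre-malignant libraries was 3.49 at a pseudocount of 1 and 4.93 at a pseudocount of 0.1, as the value rests on 6 reads in that group.

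The genes around both differed less. Within 250 kb of *Zfp11*, 14 other genes had a mean of at least 10 reads, and 0 of them differed 2-fold between the mean CPM of stably expanded and pre-malignant libraries (log2 ratios from -0.71 to 0.81). Around *Zfp583*, 1 of 6 differed 2-fold (from -0.13 to 1.01). That gene was *Zfp78*, a neighbouring member with 8, 10 and 20 reads in pre-malignant and 31, 10 and 27 reads in stably expanded libraries, whose groups overlapped. Neither *Zfp11* nor *Zfp583* shares an exon base with another gene, and at least 99.1% of their transcript windows were unique among protein-coding transcripts. The sequences of 250 bases before their RefSeq starts (GRCm38.p6, chr5:129670089-129670338 and chr7:6330435-6330684, both minus strand) are shown because the genes are the members with the widest separation between clones, and CpG dinucleotides are in capitals. The first holds 16 CpG and the second only 2, and ACTACAANT was in neither. The sequence of *Zfp583* lies inside the gene as counted here, whose first base is at 6331285, so the 2 sequences are not placed alike.
Zfp11: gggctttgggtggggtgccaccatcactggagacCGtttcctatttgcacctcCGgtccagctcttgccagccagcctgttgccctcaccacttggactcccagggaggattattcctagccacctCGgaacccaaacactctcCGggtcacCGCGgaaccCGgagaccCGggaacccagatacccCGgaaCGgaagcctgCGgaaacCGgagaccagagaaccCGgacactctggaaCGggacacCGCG
Zfp583: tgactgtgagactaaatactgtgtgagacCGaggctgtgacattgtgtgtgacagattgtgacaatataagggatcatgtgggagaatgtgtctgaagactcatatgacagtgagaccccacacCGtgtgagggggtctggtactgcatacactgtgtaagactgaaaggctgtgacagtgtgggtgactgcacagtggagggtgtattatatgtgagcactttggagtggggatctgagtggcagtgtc

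*Zfp239* (ENSMUSG00000042097.17, chromosome 6 from 117862100 to 117873291), which encodes 7 finger motifs and is known as Mok2, a protein that binds DNA and RNA, was highest in the de novo expanded clones. It had 12, 28 and 31 reads in pre-malignant, 120, 93 and 61 reads in de novo expanded and 50, 52 and 20 reads in stably expanded libraries. The 3 groups had mean levels of 1.64 ± 0.638, 6.66 ± 3.07 and 2.92 ± 0.871 CPM. The de novo expanded libraries were all above the others, with 3.98 CPM in the lowest of them against 3.56 CPM in the highest stably expanded library. Stably expanded and pre-malignant libraries overlapped (1.93 CPM in stably expanded library 3, 2.09 CPM in pre-malignant library 3). Of 6 other genes within 250 kb, 0 differed 2-fold in mean CPM between stably expanded and either other group.

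**Figure D2:**
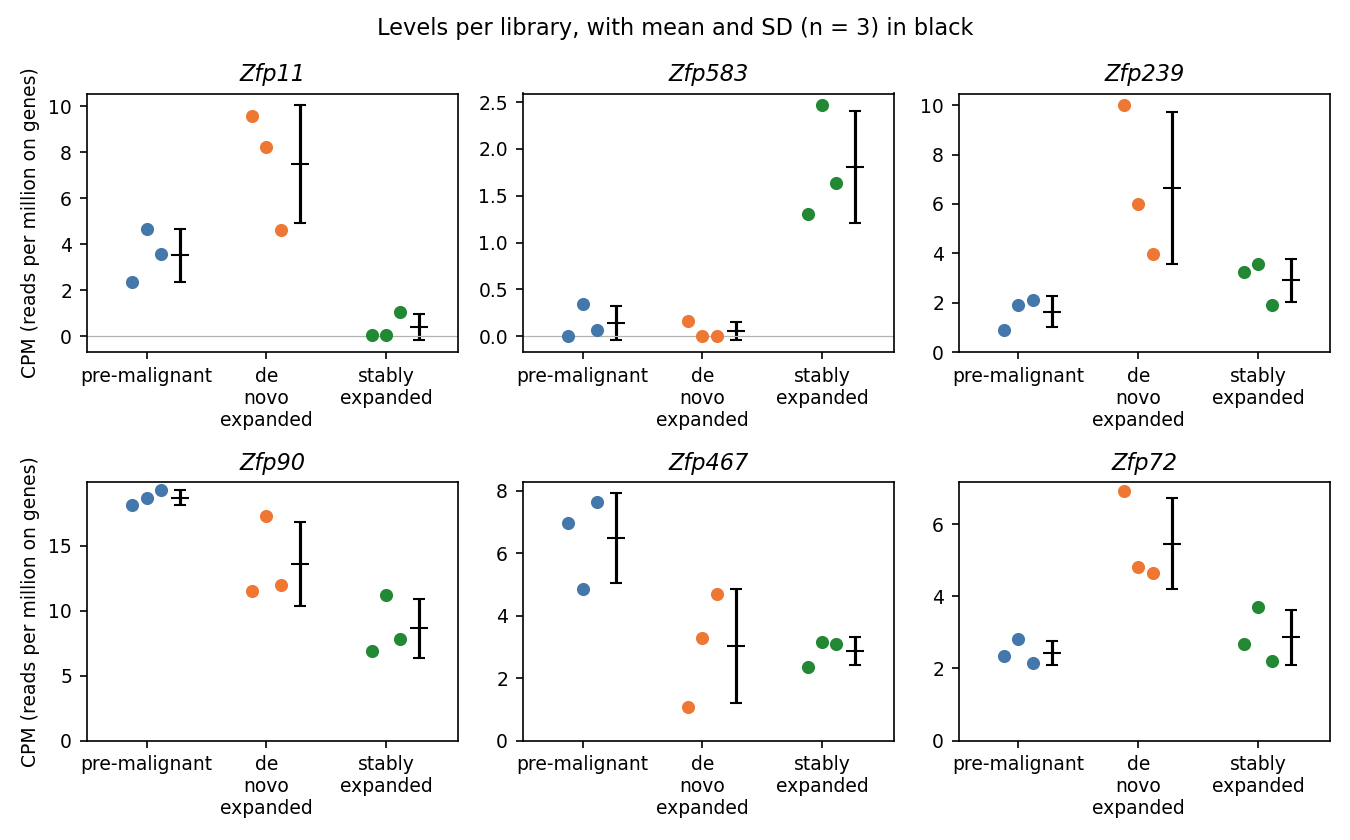
Level in CPM of *Zfp11*, *Zfp583*, *Zfp239*, *Zfp90*, *Zfp467* and *Zfp72* in each library (colored points) with mean and SD of 3 libraries (black). *Zfp11* and *Zfp583* separate the 3 stably expanded libraries from the 6 others, while *Zfp239* and *Zfp72* are highest in the 3 de novo expanded libraries.

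The first comparison set the same clones before and after expansion against each other. It also carries the difference between mice, as all pre-malignant cells came from mouse #15 and the de novo expanded cells from other mice. Of the 185 members tested, 0 were called in de novo expanded over pre-malignant libraries (limma, Benjamini-Hochberg adjusted p under 0.05 and at least 2-fold), as were 0% of all 14195 genes tested. At an unadjusted p under 0.05, 6 members were higher and 7 lower, or 3.24% and 3.78%, against 3.13% and 4.44% of the tested genes in the same base mean limits. There was no overlap of the groups in 13 members that were higher (7.03%, against 6.97%) and 14 that were lower (7.57%, against 7.46%). The shares of the members thus lay near the background in each direction. edgeR called 0 members and 0 genes in all, and DESeq2 called 1 member among 42 genes in all. Without de novo expanded library 3, limma called 1 member among 214 genes in all, so the count of 0 depends on the fit. The member was *Zfp239* both times. That gene was named for its pattern, so the single call counts as description. The median log2 fold change was -0.03, with 89 members higher and 99 lower, and -0.01 in all genes of the same limits. A 2-fold difference was seen in 8 of the 188 genes (4.26%, against 8.37%) and in 1 of the 101 with a KRAB motif.

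*Zfp239*, *Zfp72*, *Zfp11*, *Zfp428*, *Zfp296* and *Zfp770* were the members with the largest differences upward among those without overlap. *Zfp72* (chromosome 13 from 74369326 to 74390836) had 31, 41 and 32 reads in pre-malignant and 83, 75 and 71 reads in de novo expanded libraries. Its level was 2.44 ± 0.332 (SD, n = 3) against 5.46 ± 1.27 CPM, which is 1.14 on the log2 scale (SE 0.29, adjusted p = 0.36 in limma). The stably expanded clone stayed near the pre-malignant level with 41, 54 and 23 reads (2.86 ± 0.76 CPM). *Zfp296*, known as a partner of the pluripotency factor Klf4, had 85, 112 and 98 reads before and 167, 163 and 134 reads after expansion, and 116, 164 and 114 reads in the stably expanded clone. Its log2 fold changes were 0.67 (standard error 0.23, adjusted p = 0.41 in limma) and 0.50 (0.24, adjusted p = 0.21). *Zfp428* and *Zfp770* had log2 fold changes of 0.95 and 0.53, with adjusted p-values of 0.47 and 0.43 in limma.

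Downward, *Zfp108*, *Zfp619*, *Zfp420*, *Zfp112*, *Zfp503* and *Zfp182* had the largest differences, with log2 fold changes from -1.07 to -0.54 and adjusted p-values from 0.38 to 0.548 in limma. All 6 lay lower in the stably expanded clone as well, at log2 fold changes of -0.85, -0.81, -0.57, -0.50, -1.39 and -0.39. *Zfp619*, the KRAB gene with the most finger motifs, had 117, 100 and 124 reads in pre-malignant libraries, 50, 70 and 73 in de novo expanded and 78, 62 and 44 in stably expanded libraries. Its pre-malignant level of 8.03 ± 1.06 CPM stood against 4.48 ± 0.298 and 4.53 ± 0.489 CPM, with no overlap. The log2 fold change was -0.81 in both comparisons, with standard errors of 0.23 and 0.25 and adjusted p-values of 0.38 and 0.0727 in limma. Both comparisons share the pre-malignant libraries. *Zfp108*, *Zfp112* and *Zfp420* lie in clusters of chromosome 7.

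The second comparison set the stably expanded clone against the pre-malignant clones, and carries the difference between clones as well as that between mice. Of the 187 members tested, 4 were called, 1 higher (*Zfp583*, 0.535%) and 3 lower (*Zfp11*, *Zfp467* and *Zfp90*, 1.6%). Among all 13968 genes tested 1.2% were called higher and 1.55% lower, and in the base mean limits 1.39% and 2.15%. *Zfp11* and *Zfp583* were named for their pattern and count as description, so nothing is read from the shares that hold them. *Zfp583* passed the base mean limits and the filter of the test only through the stably expanded libraries, where it is high. The calls of members not named in the choice are those of *Zfp467* and *Zfp90*, both lower. The number of calls was 0 without stably expanded library 1, 1 without pre-malignant library 3 and 2 without either other pre-malignant library. At an unadjusted p under 0.05, 3 members were higher and 15 lower (1.6% and 8.02%), against 6.64% and 11.2% in the same limits. The groups did not overlap in 8 members upward (4.28%, against 9.86%) and 21 downward (11.2%, against 14.1%). The median log2 fold change was -0.11, with 73 members higher and 115 lower, and -0.06 in all genes of the same limits. Of the 188 genes 14 differed 2-fold (7.45%, against 13.4%).

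*Zfp90* (ENSMUSG00000031907.9, chromosome 8 from 106415327 to 106426598), a KRAB gene with 13 finger motifs whose product is known to bind the neuronal repressor REST, fell. It had 239, 273 and 285 reads in pre-malignant, 138, 269 and 183 in de novo expanded and 106, 163 and 81 in stably expanded libraries. The levels of 18.7 ± 0.559 (SD, n = 3), 13.6 ± 3.22 and 8.63 ± 2.24 CPM did not overlap between any 2 groups. The log2 fold change for stably expanded over pre-malignant was -1.13 (standard error 0.21, adjusted p = 0.0114 in limma). Without stably expanded library 1 the change lay just under the fold limit, with an adjusted p of 0.035. The call was also lost in 1 limma fit of all 9 libraries (adjusted p = 0.0791) and with the receptor read share as a covariate (log2 fold change -0.97, adjusted p = 0.451). For de novo expanded over pre-malignant it was -0.47 (0.20, adjusted p = 0.437).

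*Zfp467* (ENSMUSG00000068551.12, chromosome 6 from 48427697 to 48445825), known for a role in the choice between fat and bone cell fates, also fell. It had 92, 71 and 113 reads in pre-malignant, 13, 51 and 72 in de novo expanded and 36, 46 and 32 in stably expanded libraries. The stably expanded level of 2.86 ± 0.445 CPM lay below all pre-malignant libraries (6.49 ± 1.45 CPM), and the de novo expanded libraries ranged from 1.08 to 4.7 CPM. The log2 fold change for stably expanded over pre-malignant was -1.14 (standard error 0.30, adjusted p = 0.0452 in limma). The call was lost without any 1 of the 6 libraries, with adjusted p-values from 0.0553 to 0.144, and in 1 limma fit of all 9 libraries (adjusted p = 0.238). In bulk RNA of sorted cells, fewer cells that express a gene and less RNA per cell cannot be told apart.

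Further members differed in 34BC-D without passing the test. *Zfp975*, *Zfp503*, *Zfp808* and *Zfp82* had log2 fold changes of -1.48, -1.39, -1.33 and -1.22 with adjusted p-values of 0.0549, 0.0549, 0.0648 and 0.179 in limma. *Zfp503*, a developmental corepressor of the NET family with no finger motif found here, had 32, 48 and 44 reads in pre-malignant, 24, 33 and 24 in de novo expanded and 14, 19 and 10 in stably expanded libraries. The 3 groups did not overlap and formed steps of 2.9 ± 0.434, 1.9 ± 0.292 and 1.06 ± 0.211 CPM. Only 50.6% and 55.1% of the transcript windows of *Zfp975* and *Zfp808* were unique, and 34.2% of the exon bases of *Zfp82* overlap another gene. Upward, *Zfp128*, *Zfp296*, *Zfp770*, *Zfp87* and *Zfp748* had log2 fold changes of 0.63, 0.50, 0.50, 0.48 and 0.41, with adjusted p-values from 0.123 to 0.227. *Zfp87* and *Zfp748* are neighbours in the cluster of chromosome 13.

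**Figure D3:**
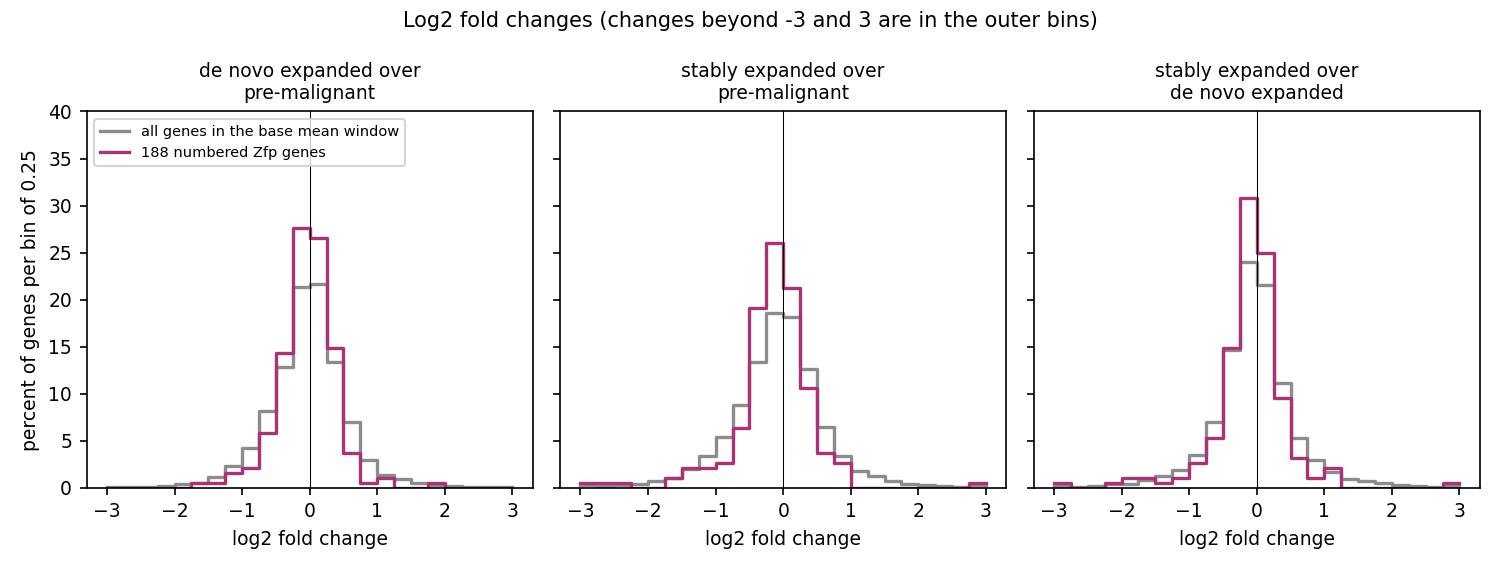
Percent of genes (vertical axis) per bin of log2 fold change (horizontal axis, bins of 0.25) for the 188 numbered *Zfp* genes and for all 7136 genes with a base mean in the same limits, in the 3 comparisons. The *Zfp* genes are narrower around 0, with 4.26% against 8.37%, 7.45% against 13.4% and 7.45% against 9.81% of genes differing at least 2-fold.

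The third comparison, stably over de novo expanded libraries, used the libraries that chose the members, so it is given without a test. The groups did not overlap in 6 members upward (3.19%, against 4.3% of all genes in the limits), which were *Zfp583*, *Zfp961*, *Zfp653*, *Zfp128*, *Zfp87* and *Zfp275*, and in 20 downward (10.6%, against 6.19%). The rule used these libraries, so nothing is read from these shares. Apart from *Zfp583* the upward differences were small, with log2 fold changes from 0.21 to 0.36. Downward, the largest were those of *Zfp11* (-4.67), *Zfp239* (-1.11), *Zfp72* (-0.92), *Zfp784* (-0.83) and *Zfp503* (-0.80). Of the exon bases of *Zfp784*, 94.8% overlap genes of the other strand, and the strand setting of the counting was not given in the sources used here. The median log2 fold change of the members was -0.05, with 78 higher and 110 lower, and -0.04 in all genes of the limits.

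All 3 libraries of clone 34BC-D lay above the 6 libraries of the other clones in 2 members (*Zfp583* and *Zfp128*, where 1.78% of all genes in the limits did) and below them in 6 (*Zfp11*, *Zfp503*, *Zfp637*, *Zfp821*, *Zfp90* and *Zfp934*, where 2.34% did). Except for *Zfp11* and *Zfp583*, these were shifts in level and not switches. *Zfp637* had 6.59, 6.58 and 6.55 CPM in the stably expanded libraries, while the 6 others ranged from 7.44 to 9.6 CPM. *Zfp128* had 7.76, 8.91 and 7.71 CPM against 3.35 to 7.36 CPM. *Zfp637* lies next to *Zfp239* on chromosome 6 (117841180 to 117845956), and only *Zfp239* was high in de novo expanded libraries. For *Zfp934*, 34.9% of the transcript windows were unique. Without de novo expanded library 3, an alternative chosen after seeing the data, 4 members lay above and 10 below, as fewer libraries set the range.

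Some members differed most between libraries of the same group. A library was taken as apart where its CPM was at least 4-fold above or below both others of its group, with at least 10 reads in the higher library compared. Among pre-malignant libraries this held for 5 members with 1 low library (1.86% of all genes in the limits) and 1 with a high library (0.981%). Among de novo expanded libraries it held for 7 low (5.91%) and 3 high (3.41%), and among stably expanded libraries, which are 1 clone in 3 mice, for 5 low (2.91%) and 2 high (1.29%). These 23 cases concern 16 members. In shares of the 188 genes they are 2.66% and 0.532% of members in the first group, 3.72% and 1.6% in the second and 2.66% and 1.06% in the third. Both in pre-malignant and in de novo expanded cells, a library apart was found in 4 members (2.13%, against 1.02% of all genes in the limits), which were *Zfp229*, *Zfp760*, *Zfp951* and *Zfp995*.

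*Zfp951* (chromosome 5 from 104813169 to 104860070), a KRAB gene with 10 finger motifs, varied widely between libraries of every group. It had 7, 130 and 74 reads in pre-malignant libraries, 65, 133 and 1 in de novo expanded libraries and 3, 22 and 2 in stably expanded libraries. One library of each of the first 2 groups was thus at or under 0.531 CPM while the other 4 held 5 to 8.9 CPM, and in the clone 34BC-D library 2 (1.51 CPM) stood above the other 2 libraries (0.196 and 0.193 CPM) by more than 4-fold. *Zfp507* (chromosome 7 from 35772343 to 35803003) had 122, 44 and 28 reads in pre-malignant, 31, 24 and 293 in de novo expanded and 21, 33 and 10 in stably expanded libraries. Its high value of 19.1 CPM was in de novo expanded library 3, the library with the high granule gene levels. *Zfp831* in turn was lowest in de novo expanded library 1, with 5 reads against 41 and 115, and *Zfp286* had 0 reads there against 25 and 15. *Zfp248* and *Zfp383* were lowest in de novo expanded library 3, with 2 and 3 reads. Whether a low library of one group holds the same clone as a low library of another is not known, since the tables name no clone.

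**Figure D4:**
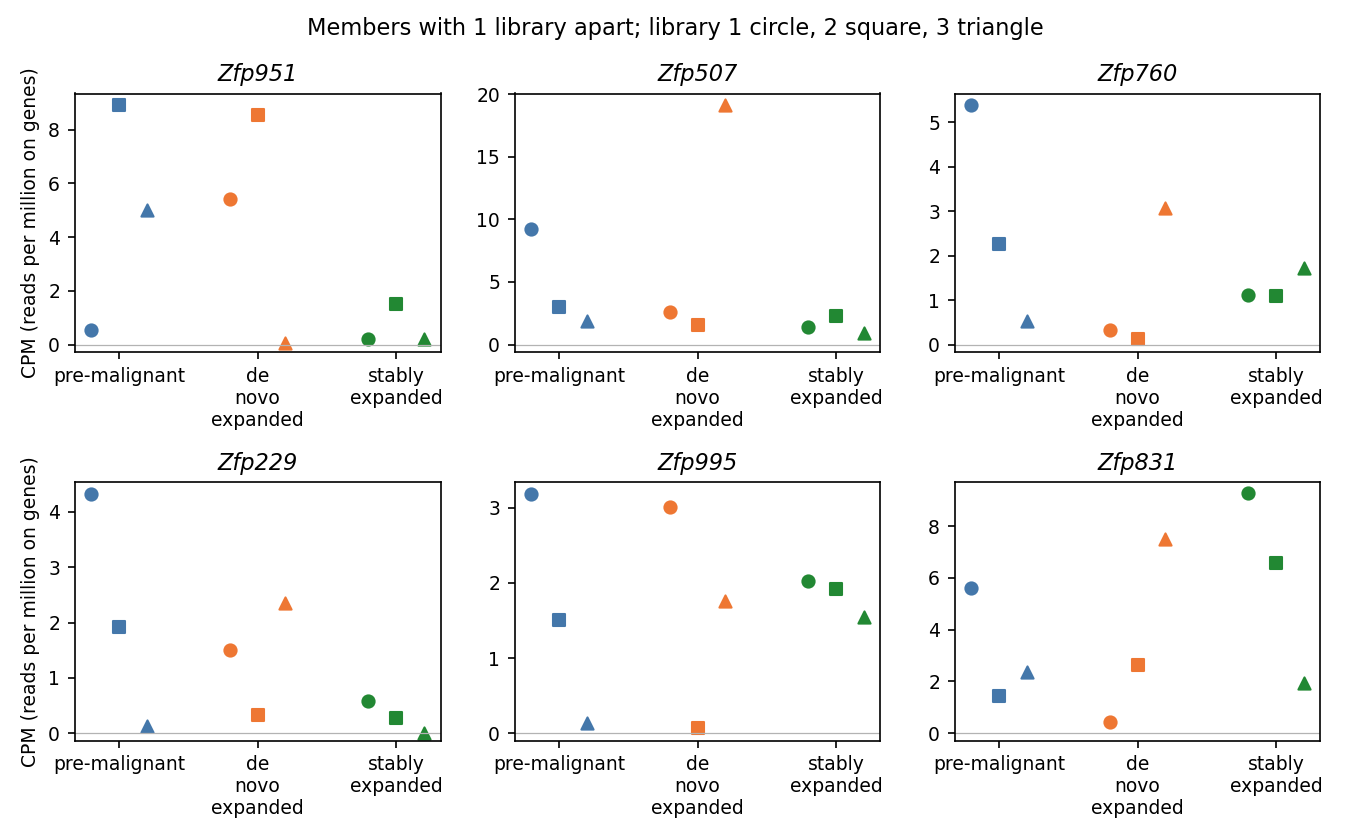
Level in CPM of 6 members with 1 library apart, in the 3 libraries of each group (circle, square and triangle for libraries 1, 2 and 3). *Zfp951* is near 0 in pre-malignant library 1, de novo expanded library 3 and the stably expanded libraries 1 and 3, and *Zfp229* and *Zfp995* are near 0 in pre-malignant library 3 and de novo expanded library 2.

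The other 3 of these genes are direct neighbours. *Zfp760*, *Zfp229* and *Zfp995* lie on chromosome 17 from 21707741 to 21725636, from 21730795 to 21769342 and from 21879570 to 21909926, and all 3 are KRAB genes, with 17, 16 and 9 finger motifs. *Zfp229* had 57, 28 and 2 reads in pre-malignant libraries, 18, 5 and 36 in de novo expanded libraries and 9, 4 and 0 in stably expanded libraries. *Zfp995* had 42, 22 and 2 reads, then 36, 1 and 27, and then 31, 28 and 16. *Zfp760* had 71, 33 and 8 reads, then 4, 2 and 47, and then 17, 16 and 18. Pre-malignant library 3 and de novo expanded library 2 were thus the lowest of their group for all 3 genes, and for *Zfp760* de novo expanded library 1 was low as well. In the stably expanded clone the genes parted, as *Zfp995* (1.83 ± 0.253 CPM) and *Zfp760* (1.31 ± 0.365 CPM) were even across mice while *Zfp229* was low (0.287 ± 0.294 CPM).

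The members named next, on either side of the 3 genes, had no library at least 4-fold apart. Upstream, *Zfp948* had 66, 68 and 45 reads in pre-malignant and 46, 56 and 80 in de novo expanded libraries. *Zfp983*, the nearest member upstream, had 71, 79 and 41 and then 30, 36 and 110 reads. Downstream, *Zfp942* had 196, 229 and 189 and then 120, 277 and 339 reads. In CPM, *Zfp942* was also lowest in pre-malignant library 3, but not in de novo expanded library 2. *Zfp948* and *Zfp983* were lowest in both of these libraries, and all these differences were under 4-fold. The 2 low libraries also had the lowest receptor read shares of their groups (0.0075 and 0.0035%). Receptor reads came to 0.464 or fewer per kb in every library, while the median member had 15.3 to 28.7 reads per kb. The 250 bases before the RefSeq starts of the 3 genes (GRCm38.p6, chr17:21707491-21707740 and chr17:21733474-21733723 on the plus strand, chr17:21909927-21910176 on the minus strand) are shown because the genes were low in the same libraries, with CpG in capitals. They hold 12, 7 and 2 CpG in the order of the chromosome, and ACTACAANT was in none. The sequence of *Zfp229* lies inside the gene as counted here, which starts at 21730795.
Zfp760: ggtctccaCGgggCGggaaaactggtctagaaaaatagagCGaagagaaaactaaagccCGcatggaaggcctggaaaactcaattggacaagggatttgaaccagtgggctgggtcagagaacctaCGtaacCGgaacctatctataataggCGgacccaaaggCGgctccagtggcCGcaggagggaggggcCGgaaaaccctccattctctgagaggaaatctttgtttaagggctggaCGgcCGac
Zfp229: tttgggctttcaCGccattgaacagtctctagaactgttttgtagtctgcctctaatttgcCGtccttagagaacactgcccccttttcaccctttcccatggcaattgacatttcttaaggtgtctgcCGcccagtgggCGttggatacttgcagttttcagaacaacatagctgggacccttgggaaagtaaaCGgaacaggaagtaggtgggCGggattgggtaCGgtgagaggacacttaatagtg
Zfp995: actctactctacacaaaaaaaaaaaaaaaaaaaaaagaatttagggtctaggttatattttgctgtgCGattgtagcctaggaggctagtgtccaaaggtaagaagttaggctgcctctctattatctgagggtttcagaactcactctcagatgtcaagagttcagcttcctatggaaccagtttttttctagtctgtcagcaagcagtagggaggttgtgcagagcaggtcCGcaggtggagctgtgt

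**Figure D5:**
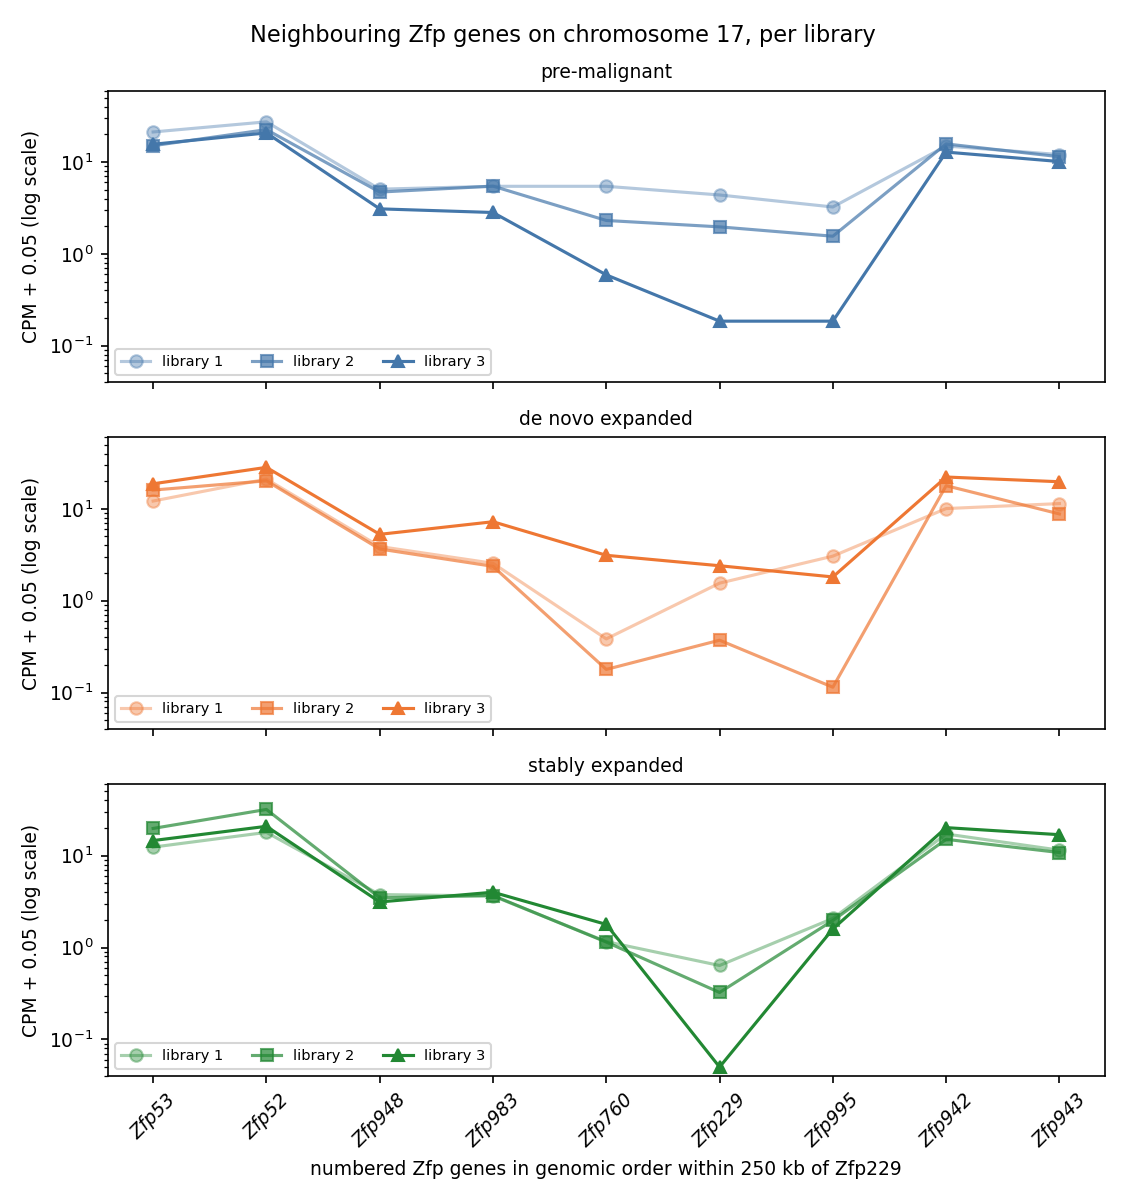
Level of 9 numbered *Zfp* genes in genomic order around *Zfp229* on chromosome 17, as CPM plus 0.05 on a log axis, with 1 line per library and 1 panel per group. The lines lie closer together from *Zfp53* to *Zfp948* and at *Zfp942* and *Zfp943* and part at *Zfp760*, *Zfp229* and *Zfp995*, where pre-malignant library 3 and de novo expanded library 2 are lowest.

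In the stably expanded clone a library also stood apart in single genes. *Zfp786*, with 18, 23 and 17 reads in pre-malignant and 19, 24 and 19 in de novo expanded libraries, had 16, 21 and 0 reads, so that it was listed at 0 in stably expanded library 3 alone. *Zfp287* had 6 reads in stably expanded library 1 against 47 and 27. *Zfp580* was uneven in every group, with 6, 12 and 33 reads, then 5, 69 and 5 and then 4, 27 and 14. *Zfp931* had 2 reads in stably expanded library 2 against 13 and 14, and *Zfp993* 3 reads in library 3 against 33 and 27, but only 36.8% and 13.4% of their transcript windows were unique. *Zfp783* had 16 reads in pre-malignant library 1 against 4 and 3.

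Chromosome clusters were defined as chains of numbered *Zfp* genes of any base mean with at most 500 kb between neighbours. Chains with at least 4 members numbered 13 and held 103 of the 188 genes, while 50 members were alone. The largest, on chromosome 17 from *Zfp160* to *Zfp213* (21008903 to 23599487), held 20 members, 17 of them with a KRAB motif. Its median log2 fold change was -0.01 for de novo expanded and -0.04 for stably expanded over pre-malignant libraries, with 10 members higher and 10 lower in both. Its summed level was 174 ± 15.9 (SD, n = 3), 175 ± 23.9 and 173 ± 7.08 CPM in the 3 groups, although *Zfp760*, *Zfp229* and *Zfp995* within it varied widely. *Zfp946* (0.50) and *Zfp760* (-1.63) were its extremes in de novo expanded, and *Zfp995* (0.89) and *Zfp229* (-2.25) in stably expanded libraries.

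The cluster of chromosome 13 from *Zfp712* to *Zfp273* (66669928 to 67827002) held 16 members, with medians of 0.02 and 0.08 and 9 members higher and 7 lower in both comparisons. *Zfp748* (0.52) and *Zfp455* (-0.51) were its extremes in de novo expanded, and *Zfp459* (0.63) and *Zfp455* (-0.64) in stably expanded libraries. The second cluster of chromosome 17, from *Zfp799* to *Zfp101*, had medians of -0.03 in both, with *Zfp763* highest (0.43 and 0.34) and *Zfp472* lowest (-0.15 and -0.32). On chromosome 4 the 5 members from *Zfp992* to *Zfp933* ranged from *Zfp992* (-0.53 and -0.57) to *Zfp993* (0.49 and 0.31). On chromosome 6 the 5 members from *Zfp786* to *Zfp775* ranged from *Zfp467* (-1.27) to *Zfp783* (0.41) in de novo expanded and from *Zfp786* (-1.52) to *Zfp783* (0.74) in stably expanded libraries.

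Chromosome 7 held 8 of the 13 clusters, and they did not move as one. In stably expanded over pre-malignant libraries, 8 of 10 members from *Zfp790* to *Zfp382* were lower (median -0.26, from *Zfp82* at -1.22 to *Zfp382* at 0.12), as were 7 of 8 from *Zfp112* to *Zfp428* (median -0.46, from *Zfp93* at -1.56 to *Zfp61* at 0.31). Their summed levels were 86.2 ± 1.62 against 76.4 ± 1.68 CPM and 46.2 ± 0.47 against 41.6 ± 1.42 CPM, without overlap. From *Zfp790* to *Zfp382*, the de novo expanded libraries also lay below all pre-malignant ones (77.25 ± 6.01 CPM), while from *Zfp112* to *Zfp428* they overlapped (44.54 ± 3.96 CPM). The sum of all 188 genes was likewise lower without overlap in stably expanded libraries (1498 against 1614 CPM). Of all 7136 genes in the base mean limits, 3249 were higher and 3887 lower there. In the cluster of *Zfp583*, from *Zfp444* to *Zfp28* (6131491 to 6396915), 4 of 5 members were higher, with a median of 0.85 and the lowest at -0.12 (*Zfp444*). This count and median hold *Zfp583* itself, which was named for its pattern, so nothing is read from them. The median is the value of *Zfp78*, whose groups overlapped, as did those of *Zfp28*. In de novo expanded over pre-malignant libraries the medians of these 3 clusters were -0.17, 0.10 and 0.26. From *Zfp553* to *Zfp668*, 6 of 8 members were higher in de novo expanded libraries (median 0.23, from *Zfp668* at -0.30 to *Zfp688* at 0.49), with summed levels of 95.0 ± 1.26 against 87.2 ± 1.96 CPM. Of all 7136 genes in the limits, 3474 were higher and 3662 lower in that comparison. In stably expanded libraries the median there was -0.06, from *Zfp764* at -0.38 to *Zfp771* at 0.33. The other 4 clusters of the chromosome had medians between -0.07 and 0.21 in de novo expanded and between -0.24 and -0.12 in stably expanded libraries. These clusters were picked out after their values were seen, and no cluster was tested.

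The list of the KRAB corepressor machinery holds known partners of KRAB proteins. All 21 genes were tested and 0 were called in either comparison. At an unadjusted p under 0.05 in limma, 5 genes were higher and 1 lower in de novo expanded libraries (23.8% and 4.76%). All genes tested gave 5.99% and 5.26%. In stably expanded libraries 5 were higher and 2 lower (23.8% and 9.52%), and all genes tested gave 13.2% and 12.3%. This background was not matched in level, as most of the 21 genes had counts above the base mean limits of the members. Tested genes inside those limits gave lower shares, with 3.13% higher and 4.44% lower in de novo expanded libraries. In stably expanded libraries they gave 6.64% and 11.2%. Whether level accounts for the shares of the list was not tested, so they are not read as an excess. The histone deacetylase gene *Hdac1* passed the adjusted p but not the fold limit in the 34BC-D libraries (0.46 on the log2 scale, SE 0.12, adjusted p = 0.0399 in limma). The median log2 fold changes of the 21 genes were 0.07 and 0.13, with 14 and 16 genes higher. *Trim28*, the corepressor that KRAB domains bind, had levels of 404 ± 40.6 (SD, n = 3), 441 ± 58.0 and 404 ± 18.1 CPM in pre-malignant, de novo expanded and stably expanded libraries. *Setdb1* had 88.3 ± 6.64, 76.3 ± 6.31 and 73.1 ± 5.35 CPM, and its differences did not pass the test (adjusted p = 0.548 and 0.159 in limma). The chromatin remodeller gene *Chd3* varied most, with 216, 99 and 566 reads in pre-malignant, 54, 293 and 173 in de novo expanded and 615, 378 and 938 in stably expanded libraries. Members with a KRAB motif had medians of -0.03 and -0.11, and those without one 0.03 and -0.15, in de novo and stably expanded over pre-malignant libraries.

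Other C2H2 families were counted in the same base mean limits. Of 12 *Zbtb*, 4 *Zkscan* and 7 *Zscan* genes tested, 0 were called in de novo expanded libraries, and 1 (*Zbtb42*, higher) in stably expanded libraries, where 1.39% of tested genes in the limits were called higher. At an unadjusted p under 0.05 in limma, 2 *Zbtb* genes were higher in de novo expanded libraries (16.7%, against 3.13%) and 0 lower (against 4.44%). In stably expanded libraries 2 *Zbtb* genes were higher and 3 lower (16.7% and 25%, against 6.64% and 11.2%), and 1 *Zscan* gene was lower (14.3%). *Zbtb49* passed the adjusted p but not the fold limit there (log2 fold change -0.86, adjusted p = 0.0466 in limma). The *Zscan* gene was *Zscan18*, with a log2 fold change of -2.56 (adjusted p = 0.104 in limma). Their medians were -0.07, -0.02 and -0.12 for de novo expanded and -0.25, 0.24 and -0.21 for stably expanded over pre-malignant libraries. All 7 *Zscan* genes were lower in de novo expanded libraries, but by log2 fold changes from -0.62 (*Zscan18*) to only -0.00106 (*Zscan2*). Their adjusted p-values were at least 0.5448 in limma, and 3662 of all 7136 genes in the limits were also lower.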

How the data were processed

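RNA was extracted from sorted cells and libraries were prepared by the authors with a SMARTer Stranded Total RNA-Seq Pico kit. Reads were processed by the authors with nf-core/rnaseq (Trim Galore 0.6.4, STAR 2.6.1d and featureCounts 1.6.4 in the submitters' processing notes) on GRCm38.p6 with GENCODE release M25. The deposited values are a signal: the authors scaled each library's read counts with DESeq2 size factors, separately in each of 3 tables of 6 libraries. Deposited fold changes and p-values of the authors' own comparisons were not used. Whole reads were recovered from the smallest step of each library (at least 99.995% of nonzero values were whole to 0.05 reads), and CPM were computed from these reads.

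Differences were tested two-sided with limma 3.58.1 (trended empirical Bayes). Values were log2(normalized count + 1) of all genes with a mean of at least 10 over the 6 libraries, with Benjamini-Hochberg adjustment over all of them. Fold changes on this scale understate those of low genes. Calls needed an adjusted p under 0.05 and a 2-fold change. In 3 libraries against 3, an exact permutation test of a single value cannot give a two-sided p below 0.1. Tested on simulated data with 4-fold changes, limma recovered 142 of 191 genes for de novo expanded and 165 of 191 for stably expanded over pre-malignant, with 8 and 9 false calls.

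The members and all lists were chosen with earlier results of these data known. Genes named are the 3 named in choosing the members, the calls, the 6 largest differences in each direction without overlap, members with 1 library apart, those at the limits and the extremes of clusters. Non-overlap was judged on normalized counts, and the position of the stably expanded libraries on CPM. Libraries of a group differed by more than counting error (chi-square of 10.3 to 65.9 per gene). Alternatives were pseudocounts of 0.1 and 5, no filter or a mean of 50, quantile normalization, centring on the median, edgeR 4.0.16, DESeq2 1.42.0, 1 fit of 9 libraries, the receptor share as covariate, no fold limit, all numbered *Zfp* genes, and leaving out each library. Protein sequences were not used here.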

Additional observations from a re-analysis of the deposited data

Results flagged for a closer look

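*Zfp11* was picked out because all de novo expanded libraries lay above and all stably expanded libraries below the pre-malignant range in normalized counts. The difference between the 2 changes is a log2 fold change of -4.67 for stably over de novo expanded libraries, and it was not tested, since *Zfp11* was named for this pattern. In CPM the de novo expanded and pre-malignant libraries overlapped by 1 library each (4.64 against 4.66 CPM).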

How the results depend on the processing

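In de novo expanded over pre-malignant libraries, the 0 called members became 1 with DESeq2 (among 42 genes called in all). They ranged from 0 to 1 when a library was left out, with 1 without de novo expanded library 3 (among 214 genes called in all). The call was *Zfp239* both times, which was named for its pattern and counts as description. edgeR called 0. The median of the members was -0.03, from -0.04 to 0.04 when a library was left out and from -0.06 (centring on the median) to 0.01 (quantile normalization) under the other settings. In stably expanded over pre-malignant libraries, the 4 calls became 1 at a mean of at least 50, 0 in 1 fit of all 9 libraries and 0 with the receptor share as covariate, where few genes were called in all (6 each). They ranged from 0 to 3 when a library was left out, with 0 without stably expanded library 1, 1 without pre-malignant library 3 and 2 without pre-malignant library 1 or 2. edgeR and DESeq2 called the same 4. The calls of *Zfp11* and *Zfp583*, which count as description, were each lost in several of these fits. The cause was not tested, except that fewer libraries or genes were tested in some. Of 388 values of named members under alternatives, 358 kept their direction and side of the threshold, 24 lost and 6 gained a call, and 0 changed direction. Library gaps were 39 at 3-fold and 11 at 8-fold, against 23. The stably expanded libraries lay outside the others in 14 members without de novo expanded library 3, a count chosen after seeing the data, against 8. The 103 members in clusters became 88 at 250 kb and 113 at 1 Mb. No paired analysis was possible because the columns name neither the clone that links pre-malignant and de novo expanded samples nor the mouse that links the leukemic ones. At 1 to 10 reads per library, as for *Zfp583*, single reads move a fold change.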
